A study of Mus musculus with 24 samples.

Results

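The WT arm of GH mice was compared with untreated GH mice in bulk RNA sequencing of the medial prefrontal cortex. Members were the 4 libraries titled GH_WT and the 4 titled GH_Con, 8 of the 24 libraries in the series, identified by their titles. All 24 libraries carry the genotype 5xFAD, an amyloid model that carries a mutated human APP transgene driven by the neuronal promoter of Thy1, so both groups share it. The treatment label is control for GH_Con, WT for GH_WT and EE, the enriched environment of the series title, for the 4 GH_EE libraries that are given beside them. SI marks the socially isolated mice of the other 3 groups (SI_Con, SI_WT and SI_EE), each with 4 libraries. What GH and WT stand for is not given in the sources used here, nor are the age of the mice, the length of treatment, or whether each library is 1 mouse or a pool. P-values therefore measure the spread between libraries, which may be technical.

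The medial prefrontal cortex is an associative region at the front of the brain that takes part in social behaviour, working memory and the control of stress responses. When its neurons fire, calcium and kinase signals switch on immediate early genes within minutes. The first wave encodes transcription factors such as Fos and the Egr and Nr4a families, and synaptic effectors such as Arc follow. Some of these genes are also read by other signals, since Per1 is at once an activity-responsive gene, a clock gene and a target of the glucocorticoid receptor.

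The 8 libraries held 35041747 to 39586858 counted reads, against 33683587 to 51274917 in the whole series. Forebrain pyramidal markers averaged 7.39 to 7.99 log2 CPM, counts scaled to a common library total, in the 8 libraries and cortical layer markers 5.28 to 5.51, so the defining markers of the labelled tissue were present throughout. By Xist and the Y-linked genes, GH_Con held 3 female and 1 male library and GH_WT 2 of each. The human APP entry of the table, which checks the genotype label in an arm named WT, was read in all 8. It stood at 3736, 3547, 3019 and 1500 CPM in GH_Con and at 3001, 2765, 3452 and 2345 CPM in GH_WT, and the GH_WT values lay inside the GH_Con range. The means were 2951 ± 1013 and 2891 ± 462 CPM (SD, n = 4 each; exact two-sided permutation p = 1, the smallest possible being 0.0286). Mouse App was at 1367, 1337, 1508 and 1345 CPM in GH_Con and 1402, 1467, 1511 and 1409 CPM in GH_WT. Mouse Thy1 was at 2152, 2684, 1792 and 1203 CPM in GH_Con and 1969, 1447, 1775 and 1517 CPM in GH_WT.

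No gene passed the threshold in GH_WT minus GH_Con. With edgeR's quasi-likelihood test and Benjamini-Hochberg adjustment, 0 of 20354 genes had an adjusted p under 0.05 (0%), and the smallest adjusted p was 1. At an unadjusted p under 0.05 there were 696 genes (3.42%), fewer than the 1018 that chance alone gives. Of these, 363 (1.78%) were higher in GH_WT and 333 (1.64%) lower. limma-voom also called 0, and DESeq2 called 11, among them Per1, Bap1, Rgs16 and Slitrk6. Others of the 11, such as Gm14308, Gm4631 and Usf2-ps1, had DESeq2 log2 fold changes of 23.7, 23.5 and -22.0, too large to be read as sizes. In 448 genes (2.2%) every GH_WT library lay above every GH_Con library, and in 412 (2.02%) below. All GH_WT minus GH_Con differences that follow are therefore values, each with an adjusted p of 1 in the edgeR fit of all 24 libraries. A p under 0.05 in a count is unadjusted unless it is called adjusted. Log2 fold changes are those of the edgeR fit and are followed by their standard error. Of the 12 higher genes with the smallest p, 4 are on the lists of immediate early factors and activity-regulated effectors and 3 on that of thalamus and habenula, and of the 12 lower genes 1 is on any list. These 3 lists held 24, 28 and 30 of the 20354 genes tested. They were chosen with earlier results of these data known, so the overlap tests nothing.

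Immediate early transcription factors were higher in GH_WT by value. Of 24 measured, 20 had a positive log2 fold change, against 48.6% of all genes. There were 7 with a p under 0.05, all of them higher (1.78% of all genes). Their median was 0.38, against -0.01 over all genes. In 3 of the 24 every GH_WT library lay above every GH_Con library (2.2% of all genes). Leaving out any 1 library kept 18 to 21 of them positive.

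Egr2, a zinc finger transcription factor (chr10:67535475-67542188, plus strand, GRCm38), had the smallest p of this list. It was read at 1.39, 4.95, 3.69 and 6.2 CPM in GH_Con and at 14.7, 16.7, 8.8 and 7.09 CPM in GH_WT (log2 fold change 1.54 ± 0.40). The groups did not overlap, but GH_WT 4 was only just above the highest GH_Con library. Fos, the AP-1 subunit most used to mark active neurons (chr12:85473890-85477273, plus strand), was at 7.48, 25.3, 12.6 and 21 CPM in GH_Con. In GH_WT it was at 41.6, 54.4, 35 and 26.3 CPM, a log2 fold change of 1.25 ± 0.33. Again the ranges did not overlap, and GH_WT 4 was the lowest of its group.

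The orphan nuclear receptors of the Nr4a family differed among themselves. Nr4a3 was at 15.7, 6.65, 11.6 and 23.4 CPM in GH_Con and 38.4, 52.7, 31.6 and 30.1 CPM in GH_WT (1.41 ± 0.41), with no overlap. Nr4a1 was at 45.2, 82.6, 60.1 and 77.6 CPM against 131, 155, 122 and 82.3 CPM (0.89 ± 0.26). Here GH_WT 4 lay within the GH_Con range. Nr4a2, which also marks deep cortical layers and the claustrum, was at 32, 55.6, 25.3 and 53.1 CPM against 22.2, 21.3, 51.1 and 39.4 CPM (-0.31 ± 0.36), with GH_WT 1 and GH_WT 2 below every GH_Con library and the other GH_WT libraries within the GH_Con range. Further factors were named after their values were seen, and in each of them the groups overlapped. Egr1 and Junb had log2 fold changes of 0.66 and 0.75, Fosb 0.53, Egr4 0.40 and Egr3 0.15. For Egr3, GH_WT 4 lay below every GH_Con library. Crem had -0.12, and Npas4, a factor induced by calcium entry alone, 0.35.

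Among 28 measured activity-regulated effectors, 19 were positive, 8 had a p under 0.05 and all 8 of these were higher (1.78% of all genes). Their median was only 0.11. In 8 every GH_WT library lay above every GH_Con library (2.2% of all genes) and in 1, Inhba, below (2.02%). Arc, which encodes a capsid-like protein of the postsynaptic density (chr15:74669083-74672570, minus strand), was at 91, 146, 109 and 170 CPM in GH_Con. In GH_WT it was at 422, 363, 397 and 187 CPM (1.41 ± 0.41). The groups were apart, with GH_WT 4 near the untreated libraries as for Egr2 and Fos. Tiparp, a mono-ADP-ribosyltransferase (chr3:65528410-65555518, plus strand), was at 19, 14.5, 15 and 14.8 CPM against 23, 30.6, 24.2 and 21.9 CPM (0.66 ± 0.18). Spry4, an inhibitor of receptor tyrosine kinase signalling, was at 9, 9.28, 12.1 and 12.7 CPM against 19.9, 21.1, 17.3 and 14.2 CPM (0.75 ± 0.22). Neither overlapped between the groups. Bdnf, the neurotrophin that later waves of activity induce, was at 28, 28.1, 22.1 and 25.9 CPM against 37.5, 30.4, 26.3 and 18.6 CPM, with GH_WT 4 the lowest of all 8 (0.11 ± 0.19).

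Without GH_WT 4, 22 of the 28 effectors were positive and their median was 0.28. That fit dropped the GH_WT library with the lowest mean of this list, which favours a higher median. Homer1, a scaffold of the synapse, and Scg2, a protein of secretory granules, are also induced by activity and had log2 fold changes of 0.04 and 0.05. Counts per gene do not separate the transcripts of Homer1.

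Per1, a repressor of the circadian clock (chr11:69095217-69109960, plus strand), had the smallest p of all genes in this comparison. It was read at 58.7, 66.3, 66.3 and 64.5 CPM in GH_Con and at 105, 109, 119 and 109 CPM in GH_WT (0.79 ± 0.16). Both groups were tight, and the lowest GH_WT library was well above the highest GH_Con library. Means were 63.9 ± 3.6 and 111 ± 5.98 CPM (SD, n = 4 each). DESeq2 gave Per1 an adjusted p of 0.0150, and edgeR on these 8 libraries alone gave 0.00562. Over the alternatives its adjusted p ran from 0.00562 to 1 and its log2 fold change from 0.74 to 0.82.

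The sequences below are the 250 bases before an annotated transcription start of 4 of these genes. The 4 sequences were picked by hand, since these genes had higher means in GH_WT and are textbook targets of factors that bind the motifs marked. They are from RefSeq on GRCm38.p6, plus strand, 5′ to 3′. For Per1 and Egr2, which have 2 and 5 starts in the table, the start with most matches is shown. Nr4a3, Tiparp and Bap1 also had higher means in GH_WT and a start there, and are not shown. Capitals mark the cyclic AMP response element half-site TGACG on either strand, the E-box CACGTG, and the CArG box that serum response factor binds.
Per1, chr11:69098699-69098948: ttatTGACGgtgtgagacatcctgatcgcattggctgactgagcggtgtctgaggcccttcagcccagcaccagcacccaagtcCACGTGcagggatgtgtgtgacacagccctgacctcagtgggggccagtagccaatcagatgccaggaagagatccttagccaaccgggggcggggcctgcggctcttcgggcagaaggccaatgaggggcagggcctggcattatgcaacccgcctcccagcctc
Egr2, chr10:67537619-67537868: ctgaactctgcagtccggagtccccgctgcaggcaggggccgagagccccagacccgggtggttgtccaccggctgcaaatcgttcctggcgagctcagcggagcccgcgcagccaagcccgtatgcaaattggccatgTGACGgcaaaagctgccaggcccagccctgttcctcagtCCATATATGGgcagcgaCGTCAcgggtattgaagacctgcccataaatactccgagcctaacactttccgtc
Fos, chr12:85473640-85473889: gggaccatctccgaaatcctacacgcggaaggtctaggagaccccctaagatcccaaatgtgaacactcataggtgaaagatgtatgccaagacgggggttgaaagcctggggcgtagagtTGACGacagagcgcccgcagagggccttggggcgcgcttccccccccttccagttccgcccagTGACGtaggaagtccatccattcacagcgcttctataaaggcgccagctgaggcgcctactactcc
Nr4a1, chr15:101266596-101266845: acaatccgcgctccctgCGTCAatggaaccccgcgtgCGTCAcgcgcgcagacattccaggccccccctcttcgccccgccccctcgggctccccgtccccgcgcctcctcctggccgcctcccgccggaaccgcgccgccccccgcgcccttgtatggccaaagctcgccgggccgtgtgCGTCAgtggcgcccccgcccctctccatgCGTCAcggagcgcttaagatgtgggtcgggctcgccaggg

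Half-sites numbered 1 in the Per1 window, 2 each in those of Egr2 and Fos and 4 in that of Nr4a1. Of 32851 windows of this length in the table, 17.8% held at least 1 half-site on either strand. The E-box stood once in the Per1 window and in 6.02% of all windows, and the CArG box once in the Egr2 window and in 1.47% of all. The whole palindrome TGACGTCA, which contains the half-site on both strands, was in none of the 4 and in 1.55% of all windows. These are matches of letters, and binding was not measured. The genes were picked as known targets, and for Per1 and Egr2 the start had the most matches. Matches in the 4 were therefore favoured by the choice, and the shares over all windows test nothing about them.

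**Figure D1:**
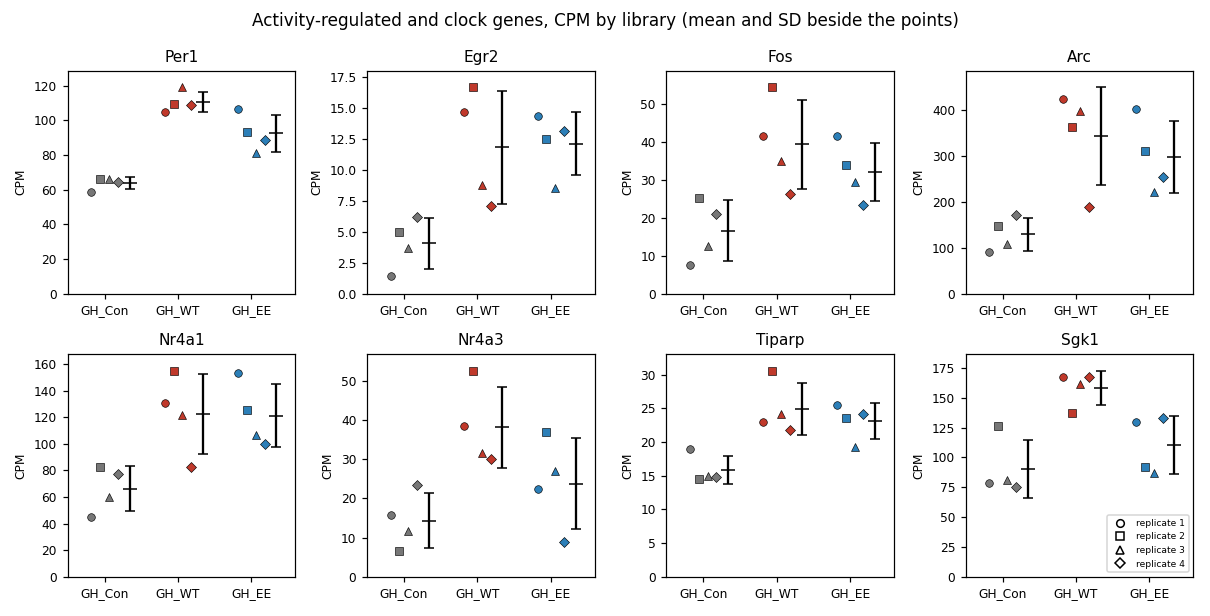
CPM (vertical axes, from 0) of 8 genes in each library of GH_Con, GH_WT and GH_EE, with marker shape for the replicate number and a bar for mean and SD (n = 4). In all panels but Nr4a1 the 4 GH_WT libraries lie above the 4 GH_Con libraries, and GH_WT 4 is the lowest GH_WT library for Egr2, Fos, Arc, Nr4a1, Nr4a3 and Tiparp.

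Clock genes other than Per1 lay closer together. Of 22 measured, 16 were positive with a median of 0.16. Per1 and Bhlhe40 were the 2 with a p under 0.05, both higher (1.78% of all genes). Bhlhe40, a repressor that is also induced by activity, was at 116, 123, 106 and 90.1 CPM in GH_Con and 179, 140, 176 and 158 CPM in GH_WT (0.59 ± 0.18), without overlap. Cry2, the partner of Per proteins in repression, was at 143, 142, 151 and 145 CPM against 165, 172, 187 and 159 CPM (0.24 ± 0.12). It did not overlap either, though the step was small. The activators Clock and Arntl had log2 fold changes of 0.01 and 0.08, and the output gene Dbp -0.08.

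Glucocorticoid response genes had 21 of 25 positive members (48.6% of all genes were), a median of 0.22 and 5 with a p under 0.05, all higher (1.78% of all genes). In 6 of the 25 the groups did not overlap, with GH_WT above (2.2%). Sgk1, a kinase that regulates ion channels (chr10:21882184-21999903, plus strand), was at 79, 127, 81.2 and 75.5 CPM in GH_Con and 167, 137, 162 and 167 CPM in GH_WT (0.81 ± 0.27). GH_Con 2 stood apart from its group and GH_WT 2 from its own, so the gap between the groups was narrow. Ddit4, an inhibitor of mTOR signalling, was at 29.5, 34.4, 29.2 and 29.8 CPM against 54.5, 42.7, 43.3 and 53.1 CPM (0.65 ± 0.28), also apart. Dusp1, a MAP kinase phosphatase that activity induces too, was at 21, 47.5, 31.3 and 34.2 CPM against 58.1, 44, 53.5 and 50.2 CPM (0.62 ± 0.25). Fkbp5, the most used marker of glucocorticoid receptor activity in brain, was at 28.4, 38.9, 30.3 and 29.5 CPM against 30.6, 27.4, 33.3 and 39.8 CPM, a log2 fold change of 0.04 with full overlap. Per1 and Dusp1 are counted in more than 1 of these lists.

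The enriched environment in the same housing is set beside GH_WT for 6 of these genes, and its comparison with GH_Con shares the GH_Con libraries. Per1 was at 107, 93.4, 81.3 and 88.6 CPM in GH_EE, above all GH_Con libraries and, in 3 of 4, below all GH_WT libraries. Egr2 was at 14.4, 12.5, 8.55 and 13.1 CPM there, Fos at 41.7, 33.9, 29.5 and 23.3 CPM and Arc at 401, 311, 221 and 253 CPM. For each of these 3 genes the GH_EE libraries overlapped those of GH_WT. Nr4a3 was at 22.4, 36.9, 26.9 and 8.81 CPM in GH_EE, which overlapped both other groups. Sgk1 was at 130, 92.3, 86.6 and 133 CPM in GH_EE, overlapping GH_Con and below every GH_WT library. In GH_WT minus GH_EE the log2 fold change was 0.26 ± 0.16 for Per1, -0.04 ± 0.39 for Egr2, 0.29 ± 0.32 for Fos and 0.21 ± 0.40 for Arc. It was 0.52 ± 0.27 for Sgk1. The median over the 24 immediate early factors was -0.03 in that contrast, with 11 positive. The errors are wide enough that neither equality nor a difference between both arms was shown.

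In socially isolated mice Per1 did not show the same order. It was at 83.4, 60.3, 110 and 123 CPM in SI_Con and 75.5, 104, 78.2 and 81.8 CPM in SI_WT, which overlapped. The interaction, the WT-arm difference in GH mice minus that in isolated mice, was 0.95 ± 0.22 for Per1 and 1.56 ± 0.38 for Sgk1. Sgk1 was at 102, 73.2, 226 and 191 CPM in SI_Con and 106, 78.3, 71.4 and 95.5 CPM in SI_WT. For Fos the interaction was 1.04 ± 0.46, for Arc 0.78 ± 0.57 and for Egr2 0.63 ± 0.55. Over all genes edgeR called 0 interactions at an adjusted p under 0.05 (0%), with 921 at an unadjusted p under 0.05, DESeq2 called 1 and limma-voom 0. The 5 smallest interaction p-values belonged to Per1, Cpne7 (1.74 ± 0.41), Large2 (3.28 ± 0.72), Zfp961 (-3.10 ± 0.71) and an entry with no symbol, ENSMUSG00000119988 (-3.10 ± 0.72). Large2 and the last of these were below 1 CPM in every library of the 4 groups.

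Markers of thalamus and habenula, nuclei that lie behind the prefrontal cortex, were high in GH_WT 2 and GH_WT 4. The mean log2 CPM of the 30 genes was 2.16, 2.34, 1.99 and 2.18 in GH_Con and 1.92, 4.32, 2.26 and 4.43 in GH_WT. So 2 of the GH_WT libraries stood far above the other 6, and the other 2 were within or next to the GH_Con range. Of the 30 genes 28 were positive, 18 had a p under 0.05 on the higher side (1.78% of all genes), and the median was 1.21. In 1 of the 30 every GH_WT library lay above every GH_Con library, near the share over all genes (2.2%). Without GH_WT 2 and GH_WT 4, 14 of 30 were positive, 0 had a p under 0.05 and the median was -0.06. In bulk tissue, more cells of a type and more RNA per cell cannot be told apart.

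Several genes with the smallest p in the whole comparison belong to this list. Slitrk6, a synapse-organising membrane protein (chr14:110748580-110755149, minus strand), was at 0.571, 0.266, 0.429 and 1.19 CPM in GH_Con and 0.339, 12.1, 2.46 and 13.2 CPM in GH_WT (3.51 ± 0.81). Slc17a6, the vesicular glutamate transporter of subcortical neurons (chr7:51622006-51671119, plus strand), was at 29.7, 31.8, 36.1 and 26.6 CPM against 43.9, 117, 31.7 and 113 CPM (1.30 ± 0.32). Rgs16, an inhibitor of G protein signalling (chr1:153740349-153745468, plus strand), was at 7.72, 8.27, 8.56 and 11.2 CPM against 11.8, 26.8, 10.1 and 38 CPM (1.28 ± 0.29). Each of the 3 was highest in GH_WT 2 and GH_WT 4, and the part of that tissue signal in their values was not tested. Over the alternatives the adjusted p ran from 0.0119 to 1 for Slitrk6 and from 0.0465 to 1 for Rgs16, the lower end in both cases from DESeq2.

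Defining genes chosen after their values were seen show the same 2 libraries. Tcf7l2, a thalamic transcription factor, was at 5.9, 3.83, 3.09 and 6.1 CPM in GH_Con and 3.92, 38, 1.94 and 56.4 CPM in GH_WT. Lhx9 was at 0, 0.372, 0.0859 and 0.31 CPM against 0.197, 15.6, 0.286 and 9.6 CPM. The habenular receptor gene Gpr151, named by rule, was at 1.06, 1.36, 0.572 and 0.491 CPM against 0.395, 10.2, 1.14 and 6.45 CPM (2.38 ± 0.68). Without GH_WT 2 and GH_WT 4 the log2 fold change of Gpr151 was -0.18, that of the nicotinic subunit genes Chrna3 and Chrnb4 -0.75 and -2.11, and that of Abhd12b -0.05. With all libraries these 3 last genes had 2.46, 3.78 and 5.38. Igsf1 and Ccdc136, also among the 12 smallest p-values on the higher side, were highest in the same 2 libraries. Igsf1 was at 0.903, 4.35, 0.829 and 6.81 CPM in GH_WT against 0.517 to 1.41 CPM in GH_Con. Ccdc136 was at 67.6, 81.3, 67.6 and 107 CPM against 58.3 to 63.3 CPM.

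Striatal genes went the other way in 3 GH_WT libraries. The mean over 24 genes was 5.88, 5.95, 5.94 and 5.91 log2 CPM in GH_Con and 3.99, 5.00, 6.33 and 5.29 in GH_WT. GH_Con was narrow, GH_WT 3 was the highest of the 8 and the other GH_WT libraries were the 3 lowest. Of the 24 genes 23 were negative with a median of -0.55, yet 0 had a p under 0.05. Without GH_WT 3 all 24 were negative and the median was -1.08. That fit dropped the GH_WT library with the highest mean of this list, which favours a lower median. Ppp1r1b, the dopamine signalling integrator of medium spiny neurons, was at 316, 366, 404 and 296 CPM against 132, 144, 421 and 201 CPM (-0.62 ± 0.37). Penk, the enkephalin precursor, was at 183, 231, 191 and 193 CPM against 39.5, 79.7, 218 and 110 CPM (-0.83 ± 0.41). Both had GH_WT 3 with the untreated libraries and the other 3 below.

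Choroid plexus genes were highest in GH_WT 2, whose mean over 21 genes was 2.38 log2 CPM against -1.19 to 0.82 in the other 7 libraries. The list's median was 1.06 with 18 positive, and without GH_WT 2 it was -0.06 with 9 positive. Hypothalamus and septum genes averaged 1.62 in GH_WT 2 and 1.6 in GH_WT 4 against -0.01 to 1.23 in the other 6. With GH_WT 2 and GH_WT 4 left out, 19 of 24 immediate early factors were positive with a median of 0.44. That fit dropped GH_WT 4, the lowest GH_WT library for Egr2, Fos and Arc, which favours a higher median. It kept GH_WT 1 and GH_WT 3, with striatal means of 3.99 and 6.33 log2 CPM. The part of the tissue signal in the immediate early factors was not tested.

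**Figure D2:**
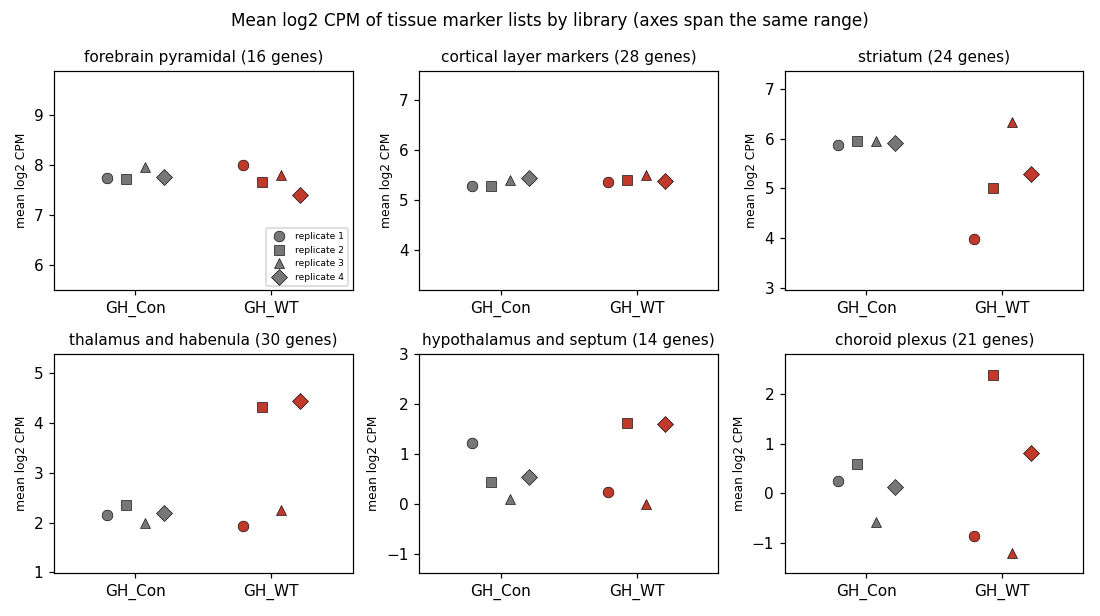
Mean log2 CPM (vertical axes, each spanning the same range) of 6 tissue marker lists in the 4 GH_Con and 4 GH_WT libraries, with marker shape for the replicate number. Thalamus and habenula genes lie at 4.32 and 4.43 in GH_WT 2 and GH_WT 4 and between 1.92 and 2.34 in the other 6, and striatal genes are lowest in GH_WT 1.

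Bap1, the catalytic subunit of a nuclear deubiquitinase and a tumour suppressor (chr14:31251450-31259944, plus strand), had the second smallest p on the higher side. It was at 81.5, 80.9, 83.7 and 86.8 CPM in GH_Con and 134, 98.5, 127 and 118 CPM in GH_WT (0.52 ± 0.11). The GH_Con libraries lay within a few CPM of each other and all GH_WT libraries were above them. GH_EE was at 88.4, 85, 99.7 and 89 CPM, which overlapped GH_WT 2 alone. SI_Con was at 125, 137, 143 and 133 CPM and SI_WT at 94, 142, 126 and 126 CPM, and the interaction was 0.67 ± 0.16. Its adjusted p over the alternatives ran from 0.0228, in DESeq2, to 1. Zdhhc24, a protein palmitoyltransferase, was at 6.91, 6.75, 6.1 and 12 CPM against 16.4, 15.5, 15.8 and 8.73 CPM (0.83 ± 0.22), with GH_Con 4 and GH_WT 4 each on the side of the other group.

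Nras, a small GTPase of growth factor signalling (chr3:103058285-103067914, plus strand), was outside the rule for named genes and was picked once its values had been seen, since edgeR called it when only these 8 libraries were fitted. It was at 11.7, 8.19, 10.9 and 11.5 CPM in GH_Con and 50.4, 48.8, 50.9 and 46.6 CPM in GH_WT (2.22 ± 0.68). Across the 24 libraries Nras took 2 separate levels, 5.35 to 12 CPM in 13 and 35.4 to 56.5 CPM in 11, and the other 4 groups held libraries at both. On the 8 libraries alone its adjusted p in edgeR was 4.86e-05, and with all 24 it was 1. Of 15561 genes with a mean of at least 1 CPM, 166 had a gap of over 1 log2 unit with at least 4 libraries on each side, counting sex-linked genes and genes of the tissue lists. Nras was the only 1 of these 166 in which the gap lay between all GH_Con and all GH_WT libraries. Amigo1, a neuronal adhesion protein, was another at 2 levels, with 26.5, 20.2, 126 and 125 CPM in GH_Con and 25.2, 25.7, 28.7 and 27.2 CPM in GH_WT. What sets the level of such a gene in a library was not tested.

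**Figure D3:**
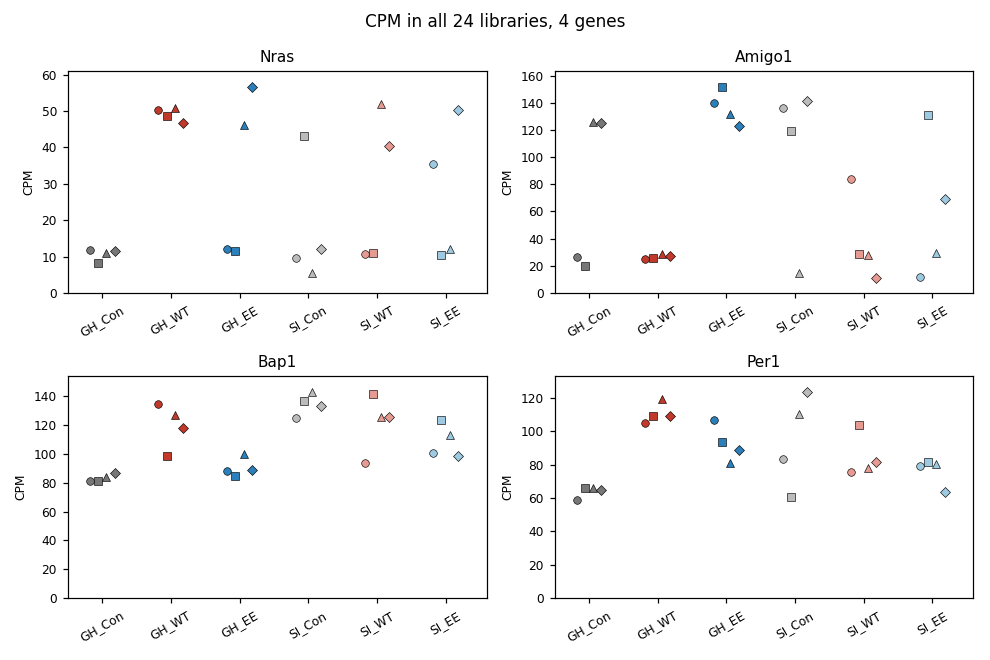
CPM (vertical axes, from 0) of Nras, Amigo1, Bap1 and Per1 in all 24 libraries by group, with marker shape for the replicate number. Nras is at 46.6 to 50.9 CPM in all 4 GH_WT libraries and at 8.19 to 11.7 CPM in all 4 GH_Con libraries, while GH_EE and the SI groups have libraries at both levels.

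On the lower side, all 13 mitochondrially encoded genes had a negative log2 fold change, against 51.4% of all genes. Their median was -0.18, and 3 had a p under 0.05 on the lower side (1.64% of all genes). In 7 every GH_WT library lay below every GH_Con library, against 2.02% of all genes. All 13 stayed negative when any 1 library was left out. These transcripts come from 1 molecule and share their source, so they are not independent of each other. mt-Nd6, the complex I subunit encoded on the light strand, was at 169, 159, 156 and 118 CPM in GH_Con and 96.7, 89.4, 107 and 111 CPM in GH_WT (-0.58 ± 0.18). Whether the counting used strand is not given in the sources used here, so its reads and those of heavy-strand RNA over the same bases cannot be told apart. mt-Nd4 was at 7156, 7025, 6847 and 6536 CPM against 5939, 5526, 6136 and 5979 CPM (-0.23 ± 0.11), and mt-Nd5, with a log2 fold change of -0.27 ± 0.12, had overlapping groups. GH_EE was at 77.3, 98, 81.9 and 93.1 CPM for mt-Nd6, below all GH_Con libraries as well. Nuclear genes of oxidative phosphorylation were nearer to 0, with 57 of 77 negative, a median of -0.03 and 0 with a p under 0.05.

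Edn1, the vasoconstrictor endothelin, had the smallest p of the lower genes (chr13:42301476-42307990, plus strand). It was at 4.05, 4.89, 4.35 and 4.39 CPM in GH_Con and 1.78, 2.15, 3.31 and 2.87 CPM in GH_WT (-0.81 ± 0.22), without overlap. Its order among the GH_WT libraries is that of the striatal list means, whose part was not tested. GH_EE was at 2.73, 2.19, 3.49 and 2.77 CPM, again below all GH_Con libraries, with striatal means of 5.59, 5.63, 6.24 and 6.35 log2 CPM against 5.88 to 5.95 in GH_Con. Adprhl2, a hydrolase that removes ADP-ribose from serine, was at 18.9, 18.7, 18.9 and 17.8 CPM against 11.3, 10.1, 15.1 and 10.4 CPM (-0.66 ± 0.22). GH_EE libraries had 9.97 to 14.1 CPM of it. Tuba4a, an alpha tubulin, was at 422, 496, 472 and 468 CPM against 313, 256, 438 and 262 CPM (-0.55 ± 0.17). GH_WT 3 lay within the GH_Con range and GH_EE libraries were at 410 to 486 CPM.

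Ryr1, a calcium release channel (chr7:29003344-29125179, minus strand), was at 19.2, 19.6, 19.8 and 23 CPM in GH_Con and 8.72, 10.7, 15.7 and 14.3 CPM in GH_WT (-0.72 ± 0.23), without overlap. Its order among the GH_WT libraries, lowest in GH_WT 1 and highest in GH_WT 3, is also that of the striatal list means, and the part of that signal was not tested. Sox2ot, the long RNA that overlaps Sox2, was at 6.26, 38.6, 31.4 and 13.2 CPM against 8.52, 7.5, 5.06 and 6.98 CPM (-1.67 ± 0.54), so its difference came from 3 high GH_Con libraries. Trdmt1, Map10, Rab32, Ccdc191, Zfp273 and Cenpe, each under 10 CPM in all 8 libraries, complete the 12 lower genes with log2 fold changes from -0.50 to -0.95.

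**Figure D4:**
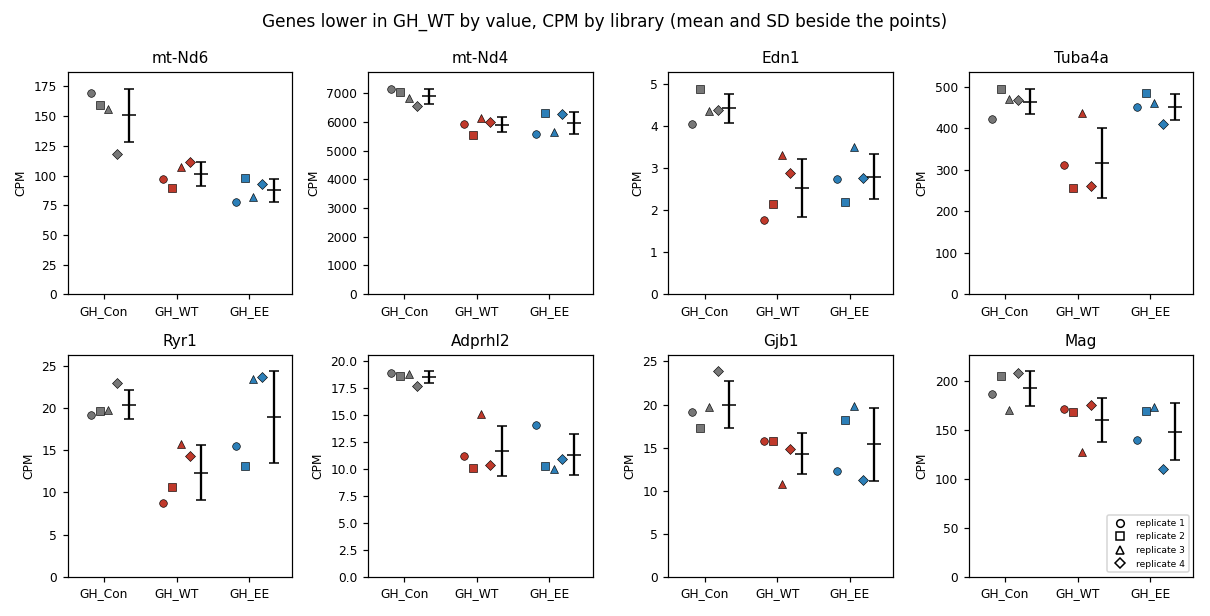
CPM (vertical axes, from 0) of 8 genes with negative log2 fold changes in each library of GH_Con, GH_WT and GH_EE, with marker shape for the replicate number and a bar for mean and SD (n = 4). GH_WT lies below GH_Con without overlap for mt-Nd6, mt-Nd4, Edn1, Ryr1, Adprhl2 and Gjb1, and overlaps it for Tuba4a and Mag.

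Myelin genes were slightly lower by value in 27 of 29, with a median of -0.17. Only 1 had a p under 0.05, on the lower side (1.64% of all genes). Gjb1, a gap junction protein of oligodendrocytes (chrX:101376378-101385629, plus strand), was at 19.1, 17.3, 19.7 and 23.9 CPM in GH_Con and 15.7, 15.8, 10.8 and 14.9 CPM in GH_WT (-0.48 ± 0.19). Mbp, the main protein of compact myelin, was at 573, 811, 600 and 772 CPM against 670, 565, 525 and 673 CPM (-0.18 ± 0.16) and its groups overlapped. The list leaned on 2 libraries. Without GH_Con 4, 18 of 29 were negative with a median of -0.06, and without GH_WT 3, 22 were negative with a median of -0.09. Oligodendrocyte precursor genes had 13 of 19 positive and a median of 0.05, which was -0.13 without GH_WT 2 and GH_WT 4.

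Cytosolic ribosomal protein genes were negative in 77 of 82, with a median of -0.15. There were 3 with a p under 0.05, all lower (1.64% of all genes). GH_Con 2 had the highest mean of the list, 7.08 log2 CPM against 6.52 to 6.85 in the other 7, and in it long genes read lowest. Spearman's rho across genes was taken between exon length and the deviation from the mean over all 24 libraries. It was -0.24 in GH_Con 2, against -0.06 to 0.17 in the other 7. Without GH_Con 2, 60 were negative and the median was -0.05. The part of the length trend in this list was not tested. Rpl26 was at 184, 247, 192 and 187 CPM against 147, 161, 132 and 129 CPM (-0.51 ± 0.21), without overlap.

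Microglial genes varied more within GH_Con than between the groups. Plaque-associated genes, which microglia express around amyloid deposits, averaged 4.66, 4.24, 3.82 and 3.18 log2 CPM in GH_Con and 3.54, 3.73, 4.11 and 4.08 in GH_WT. All GH_WT libraries lay inside the GH_Con range. The list had 22 of 30 negative and a median of -0.20 with 0 at a p under 0.05, and without GH_Con 1 it had 14 negative and a median of 0.03. Cst7, a cystatin of these cells, was at 14, 3.7, 2.8 and 0.904 CPM against 1.44, 3.17, 5.37 and 4.41 CPM (-0.57 ± 1.04). Trem2, their lipid receptor, was at 27.2, 20.7, 12.1 and 9.79 CPM against 11.9, 11.5, 17.7 and 15.4 CPM (-0.30 ± 0.44). P2ry12, a receptor of homeostatic microglia, was at 37.4, 31.1, 30.1 and 15.7 CPM against 23.2, 25.5, 31.1 and 36 CPM (0.02 ± 0.29). GH_Con 1 was highest in all 3, and it was also the library with most human APP reads and, for Gfap, the astrocyte intermediate filament, most of the 8, at 477 CPM. A link among these values, seen in 1 library, was not tested. Gfap was at 343, 177 and 170 CPM in the other GH_Con libraries and 170, 189, 191 and 218 CPM in GH_WT (-0.60 ± 0.45). Complement genes had 15 of 20 negative (median -0.17), homeostatic microglia genes 16 of 20 (-0.10), astrocyte markers 14 of 22 (-0.05) and antigen presentation genes 12 of 23 (-0.02). Amyloid processing and clearance genes had 15 of 29 negative with a median of -0.01 and 0 at a p under 0.05.

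Synaptic lists had medians near 0. Presynaptic genes had 19 of 36 positive (median 0.01), glutamate receptors and scaffolds 22 of 45 (-0.0014), GABA receptors and inhibitory neuron genes 24 of 37 (0.06) and potassium channels 42 of 66 (0.07). Neurotrophic factors and their receptors had 14 of 31 positive with a median of -0.02. Monoamine and acetylcholine receptors had 26 of 38 positive with a median of 0.12. On the higher side 3 had a p under 0.05 (1.78% of all genes), Chrna3, Htr2c and Chrnb4. Htr2c, the serotonin 2C receptor, was at 12.2, 13.8, 12.1 and 20 CPM against 10, 44.4, 20.2 and 39 CPM (0.97 ± 0.39), highest in the 2 libraries with thalamic genes.

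**Figure D5:**
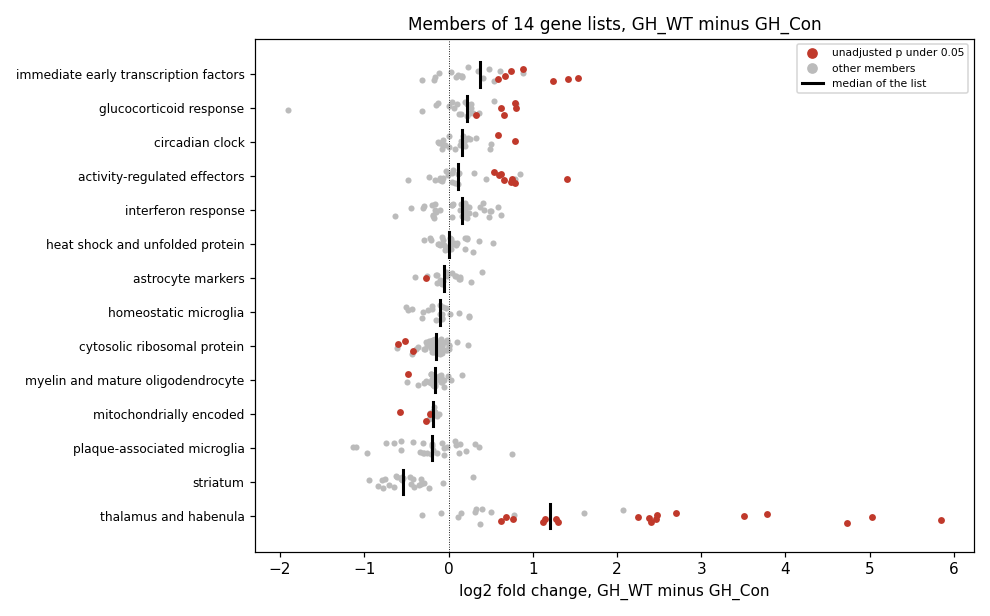
Log2 fold changes, GH_WT minus GH_Con (horizontal axis), of the members of 14 gene lists, with a black line at each list's median and red points for an unadjusted edgeR p under 0.05. Medians run from -0.55 for striatal genes to 1.21 for thalamus and habenula genes, and the 7 red points among immediate early factors are all above 0.

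Compared directly with the enriched environment in the same housing, GH_WT differed in 1 gene at an adjusted p under 0.05 (0.00491% of 20354). Gm5514, a predicted gene named after its values were seen, was at 25.9, 27.9, 0.965 and 26.5 CPM in GH_EE and 1.13, 1.02, 0.914 and 1.31 CPM in GH_WT (-4.21 ± 0.58, edgeR adjusted p = 0.00604). GH_EE 3 was at the GH_WT level. The GH_Con libraries, with 0.646 to 0.887 CPM, were near GH_WT too. limma-voom called 0 genes, and the call was lost without GH_WT 2, 3 or 4. It was also lost with these groups fitted alone, where Amigo1, Ppp1r26 and ENSMUSG00000095041 were called instead. Glcci1, a glucocorticoid-induced transcript, was at 30.8, 56.4, 60.3 and 65.1 CPM in GH_EE and 3.39, 7.82, 7.37 and 6.75 CPM in GH_WT (-3.07 ± 0.66), with 3.33 to 16.5 CPM in GH_Con. Fbn1, the microfibril protein fibrillin, was at 4.32, 3.68, 5.14 and 3.68 CPM in GH_EE against 6.8, 10, 9.92 and 5.83 CPM in GH_WT (0.95 ± 0.19). Pfkfb2, a regulator of glycolysis, was at 20.2, 25.7, 23.3 and 30.1 CPM against 35.3, 36.1, 33.9 and 38.9 CPM (0.54 ± 0.12). In these 3 genes the groups did not overlap.

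In the same contrast 28 of 30 thalamus and habenula genes were higher in GH_WT (median 0.95), as were 20 of 21 choroid plexus genes (1.26), and 22 of 24 striatal genes were lower (-0.64). The GH_WT libraries that stood apart in these lists are those described against GH_Con. Of 30 heat shock and unfolded protein genes, 29 were lower in GH_WT than in GH_EE (47.4% of all genes were), with a median of -0.24, and 8 had a p under 0.05 on that side (1.38% of all genes). In 0 of the 30 were all GH_WT libraries below all GH_EE libraries. The list averaged 6.76, 6.23, 6.26 and 6.71 log2 CPM in GH_EE and 6.56, 6.23, 6.06 and 6.07 in GH_WT, so GH_EE 1 and GH_EE 4 stood above the others and GH_EE 2 and GH_EE 3 lay within the GH_WT range. Against GH_Con 16 of the 30 were positive with a median of 0.01. Manf, a secreted protein of the endoplasmic reticulum stress response chosen after its values were seen, was at 62.1, 45.3, 43.3 and 68.8 CPM in GH_EE, 45.3, 34.9, 34.9 and 31.7 CPM in GH_WT and 31.8, 38.5, 34.5 and 39.6 CPM in GH_Con. Its log2 fold change was -0.58 ± 0.15 against GH_EE and 0.02 against GH_Con.

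Interferon response genes were higher in GH_WT than in GH_EE in 35 of 38 (52.6% of all genes were), with a median of 0.51. Of these, 5 had a p under 0.05 (2.27% of all genes), and in 10 every GH_WT library lay above every GH_EE library (2.09%). The list averaged 1.48, 2.03, 2.29 and 1.63 log2 CPM in GH_EE and 2.41, 2.24, 2.17 and 2.67 in GH_WT. GH_EE 1 and GH_EE 4 were lowest, and GH_EE 3 lay within the GH_WT range. Against GH_Con the list had 26 of 38 positive, a median of 0.17 and 0 genes with a p under 0.05. Ddx58, the viral RNA sensor RIG-I, was chosen after its values were seen. It was at 4.67, 5.18, 6.44 and 4.66 CPM in GH_EE and 7.79, 8, 8.37 and 8.73 CPM in GH_WT (0.65 ± 0.27). In GH_Con it was at 8.21, 7.84, 4.84 and 5.48 CPM, which spanned both.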

How the data were processed

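Total RNA was extracted and sequenced on the Illumina platform, per the labels' protocols, and the submitters' processing notes name the build mm10. The authors deposited 1 table of whole-number read counts per gene, not normalised as judged from its values. Aligner, counter, annotation and strandedness are not stated in the sources used here, so overlapping, antisense and near-identical genes are uncertain. Of its 56750 entries 52073 were paired with a symbol, and the APP entry in human spelling was taken for the transgene. One item is not reported here. Samples were grouped by title.

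The counts entered edgeR 4.0.16 under R 4.3.3 and its quasi-likelihood test (TMM, filterByExpr, robust, no covariate, all 24 libraries in 1 fit, 20354 genes), with Benjamini-Hochberg adjustment and a threshold of 0.05. The contrasts were GH_WT minus GH_Con, GH_WT minus GH_EE, and the WT arm by housing. CPM were computed on TMM-scaled totals, with a prior count of 2 on the log2 scale. The human APP entry was tested by exact permutation. limma-voom 3.58.1, DESeq2 1.42.0, other filters and factors, a sex covariate, a replicate block and left-out libraries were alternatives. The edgeR fit and the permutation test were checked on simulated data.

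The members and the 41 gene lists were chosen with earlier results of these data known, and no list was tested. Where under 10 genes passed, the rule named the 12 smallest p-values per direction with a mean of at least 1 CPM and no Gm or Rik symbol. It added up to 4 members per list with the smallest p in the direction of its median, a few genes always, and the 5 smallest p-values of the other contrasts. List members given for their role, and genes said to be chosen after their values were seen, fall outside it. Coordinates are from GENCODE mouse release M21 (GRCm38). Same-numbered GH_Con and GH_WT libraries had correlations of their deviations from -0.07 to 0.16, with 1 of 4 above 0.1, so the numbers were not taken to pair libraries.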

Additional observations from a re-analysis of the deposited data

Results flagged for a closer look

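In groups of 4, a library was singled out where its gap to the nearest of the others took over 0.829 of the group's range. Chance alone marks about 1 in 20 groups, and 13 of 222 tested were marked here. Among genes, in log2 CPM, GH_WT 4 was low for Zdhhc24 at 3.14 (3.96 to 4.04 in the other 3). GH_WT 3 was low for Map10 at 1.71 (1.89 to 1.92), for Gjb1 at 3.44 (3.90 to 3.99) and for Mag at 6.99 (7.40 to 7.46). GH_WT 2 was low for Sgk1 at 7.10 (7.34 to 7.39). GH_Con 2 was high for Sgk1 at 6.99 (6.24 to 6.34), for Ddit4 at 5.11 (4.87 to 4.90) and for Rpl26 at 7.95 (7.53 to 7.59), and GH_Con 1 was high for Tiparp at 4.25 (3.86 to 3.91).

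Among list means in log2 CPM, the ribosomal protein genes were high in GH_Con 2 at 7.08 (6.71 to 6.74 in the other 3). Meningeal and fibroblast genes were high in GH_Con 1 at 3.49 (2.61 to 2.72). Reactive astrocyte genes were low in GH_Con 3 at 1.72 (2.36 to 2.42), and forebrain pyramidal genes were high there at 7.96 (7.73 to 7.76). The library apart was GH_Con 2 in 4 of the 13 cases and GH_WT 3 in 3.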

How the results depend on the processing

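For GH_WT minus GH_Con the count of 0 became 11 in DESeq2 (9 higher, 2 lower) and 2 with these groups fitted alone, and was 0 in every fit without 1 library. For GH_WT minus GH_EE the count of 1 became 7 in DESeq2, 3 with the groups alone, and 0 in limma-voom, without the 4 libraries with the lowest long genes and without the 2 with thalamic genes. Without 1 library it ran from 0 to 2. The interaction's 0 became 1 in DESeq2 and was 0 in every fit without 1 library. With the replicate number as a block, which the data do not pair, the counts were 0, 1 and 0. The difference in the human APP entry, 0.04 in log2 CPM, was -59.8 in linear CPM (exact p = 0.914), and without 1 library ran from -0.26 (without GH_Con 4, exact p = 0.143; -0.05 without GH_WT 3) to 0.18.

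Of single genes, without 1 library the log2 fold change ran from -0.92 to 0.54 for Cst7 (0.54 without GH_Con 1), from -0.18 to 0.17 for P2ry12 (negative without GH_Con 4, GH_WT 3 or GH_WT 4) and from -0.057 to 0.27 for Bdnf (negative without GH_WT 1). Cst7 was at 0.27 with sex as a covariate. Without the 2 libraries with thalamic genes P2ry12 was at -0.080, Abhd12b at -0.053, Chrna3 at -0.75, Chrnb4 at -2.11 and Gpr151 at -0.18. The cause was not tested. Each fit without a library left 3 in 1 group.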
